A study of Homo sapiens with 8 samples.

Results

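DKK2 encodes a secreted protein of the Dickkopf family, whose members act outside the cell on receptors of the WNT signalling pathway. It is described here with 9 further genes of WNT signalling, DKK1, DKK3, SFRP1, SFRP2, WNT5A, WNT5B, FZD7, LRP6 and AXIN2, in mesenchymal stromal cells that were frozen and thawed or left fresh. The 10 genes were chosen by name from the 23354 genes of the deposited count table. All 10 were in the table, and 9 of them passed the filter on low counts, among 15924 genes that did. DKK2 was chosen because it stood out in frozen against fresh cells, so its levels are given as a description with no test. The others were named as its pathway partners with results of these libraries already known, so their p-values describe these libraries and are not independent evidence.

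The cells were mesenchymal stromal cells derived from the established human embryonic stem cell line H9 and used at passages 8 to 12. RNA sequencing gave 8 libraries, each of its own condition, and none of the conditions was repeated. The 3 osmolyte-frozen libraries came from cells frozen at 3 °C/min in experimental solutions labelled SMC, SGC and SGI, after 2 h of contact for SMC and 1 h for SGC and SGI. The 2 DMSO-frozen libraries came from cells frozen at 1 °C/min in DMSO, the usual cryoprotectant, after 1 h or 0 h of contact. The 3 fresh libraries came from cells that were not frozen, taken at 0 h, after 1 h in DMSO and after 1 h in medium. Solution and cooling rate went together, so their parts in a difference between the frozen groups cannot be told apart. No fresh library was held in an osmolyte solution. Whether the libraries stem from separate cultures is not stated in the labels. The p-values therefore reflect only how these libraries, unlike in condition, spread, and part of that spread may be technical. The measurements are of whole cell samples, in which fewer cells of a type and less RNA per cell cannot be told apart.

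WNT ligands are secreted proteins that bind Frizzled receptors, and in the canonical branch also the co-receptors LRP5 and LRP6, after which β-catenin escapes destruction and enters the nucleus to act with TCF and LEF factors. Secreted antagonists act at the cell surface: DKK proteins at LRP5 and LRP6, and SFRP proteins largely by binding the ligands. In mesenchymal stromal cells this signalling is known for its part in self-renewal and in the choice between bone and fat fates, and WNT5A and WNT5B are known mainly for β-catenin-independent signalling.

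Promoter sequence was looked up in a set of promoter windows (GRCh38.p14) that did not cover all members. It is shown for DKK1 and WNT5B, which had an entry and whose osmolyte-frozen libraries stood above both other groups. DKK2, FZD7 and AXIN2 also stood above both other groups but had no entry in this set, though the RefSeq annotation holds these genes. Of the 10 members, the lookup returned an entry for 4, with 6 entries in all, and SFRP2 and WNT5A were the remaining matches. SFRP1 was left out of the lookup, so the count does not show whether it has an entry. The windows are the 250 bases before an annotated gene start, all on the plus strand. DKK1 has a single entry, at chr10:52314031-52314280. WNT5B has 2, at chr12:1616806-1617055 and chr12:1628981-1629230. Capitals mark CTTTGA or CTTTGT, core letters of the motif bound by TCF and LEF factors, searched on both strands, where no match overlapped another.
DKK1: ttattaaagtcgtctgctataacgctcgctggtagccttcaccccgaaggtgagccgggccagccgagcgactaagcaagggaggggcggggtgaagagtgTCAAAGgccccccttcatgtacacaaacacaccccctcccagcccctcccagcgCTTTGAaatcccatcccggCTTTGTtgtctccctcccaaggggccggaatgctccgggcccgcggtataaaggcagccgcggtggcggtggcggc
WNT5B, first start: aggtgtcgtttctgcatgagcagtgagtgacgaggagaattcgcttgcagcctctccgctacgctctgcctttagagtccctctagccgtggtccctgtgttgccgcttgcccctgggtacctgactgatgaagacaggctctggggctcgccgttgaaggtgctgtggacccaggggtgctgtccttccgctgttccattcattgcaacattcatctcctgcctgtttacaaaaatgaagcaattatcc
WNT5B, next start: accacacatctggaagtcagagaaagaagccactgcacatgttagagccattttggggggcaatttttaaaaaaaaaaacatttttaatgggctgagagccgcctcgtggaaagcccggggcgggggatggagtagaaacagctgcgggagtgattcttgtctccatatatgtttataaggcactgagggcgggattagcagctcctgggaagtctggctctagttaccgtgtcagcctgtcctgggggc
The DKK1 window held 3 matches, 2 on the gene's strand and 1 on the other, and neither WNT5B window held any. Of the 35116 promoter windows in the table, 22.8% held at least 1 match, 4.11% at least 2 and 0.584% at least 3. The matches are a description of the letters and no measure of binding.

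Summed counts ran from 41198716 to 51166666 per library. Levels below are CPM, counts normalised to library size after TMM scaling (trimmed mean of M-values), and a gene is called where its edgeR quasi-likelihood p, adjusted by Benjamini-Hochberg over all 15924 genes, is under 0.05. Of the mesenchymal stromal markers, all 6 listed were detected, with a summed level of 1233 to 1322 CPM in osmolyte-frozen, 1620 to 1665 CPM in DMSO-frozen and 1787 to 1851 CPM in fresh libraries. The 6 blood markers summed to at most 2.59 CPM, with HLA-DRA at 0 throughout. The 6 pluripotency markers summed to 9.73 to 12.6 CPM in osmolyte-frozen, 6.34 to 6.52 CPM in DMSO-frozen and 6.94 to 8.01 CPM in fresh libraries. Of the 5 epithelial markers, EPCAM reached at most 2.19 CPM and CDH1 1.12 CPM, while KRT8 and KRT18 made up most of the sums of 1265 to 1389, 1221 to 1243 and 1360 to 1553 CPM in osmolyte-frozen, DMSO-frozen and fresh libraries. The 5 endothelial markers, mostly TEK, summed to 39.6 to 45.8, 49.9 to 54.3 and 35.8 to 45.2 CPM in the same groups. The nuclear RNAs MALAT1 and NEAT1 together took 0.846% to 0.948% of counts in osmolyte-frozen libraries, 0.393% to 0.452% in DMSO-frozen and 0.472% to 0.567% in fresh ones. The stromal markers did not move as one. CD44 was at 254 to 277 CPM in osmolyte-frozen, 464 to 496 CPM in DMSO-frozen and 539 to 584 CPM in fresh libraries, and ENG and NT5E were also lowest in the osmolyte-frozen libraries. THY1 was highest there, at 260.4 to 300 CPM in osmolyte-frozen, 240 to 241 CPM in DMSO-frozen and 227 to 259 CPM in fresh libraries, and VCAM1 overlapped between the groups. PDGFRB was at 304 to 356 CPM in osmolyte-frozen, 353 to 395 CPM in DMSO-frozen and 402 to 414 CPM in fresh libraries. Its frozen groups overlapped, and both lay below the fresh libraries. The part of these markers and of the share of nuclear RNA in the results was not tested.

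DKK2 lies on chromosome 4 at 107842959 to 107957453 (hg19). Its protein can either activate or inhibit LRP6, depending on the cell. DKK2 stood at 56.7 CPM in SMC, 52.2 CPM in SGC and 42.7 CPM in SGI. In DMSO-frozen cells it stood at 20.2 CPM after 1 h and 16.5 CPM after 0 h, and in fresh cells at 5.91 CPM at 0 h, 3.82 CPM after 1 h in DMSO and 3.54 CPM after 1 h in medium. The 3 groups formed 3 separate steps, with no overlap between any pair of them. The means were 50.5 ± 7.17 CPM in osmolyte-frozen cells (SD, n = 3), 18.3 ± 2.61 CPM in DMSO-frozen cells (SD, n = 2) and 4.43 ± 1.29 CPM in fresh cells (SD, n = 3). The fitted fold was 11.4 for osmolyte-frozen over fresh cells, 4.12 for DMSO-frozen over fresh cells and 2.76 for osmolyte-frozen over DMSO-frozen cells. These comparisons share libraries and are not independent of each other.

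**Figure D1:**
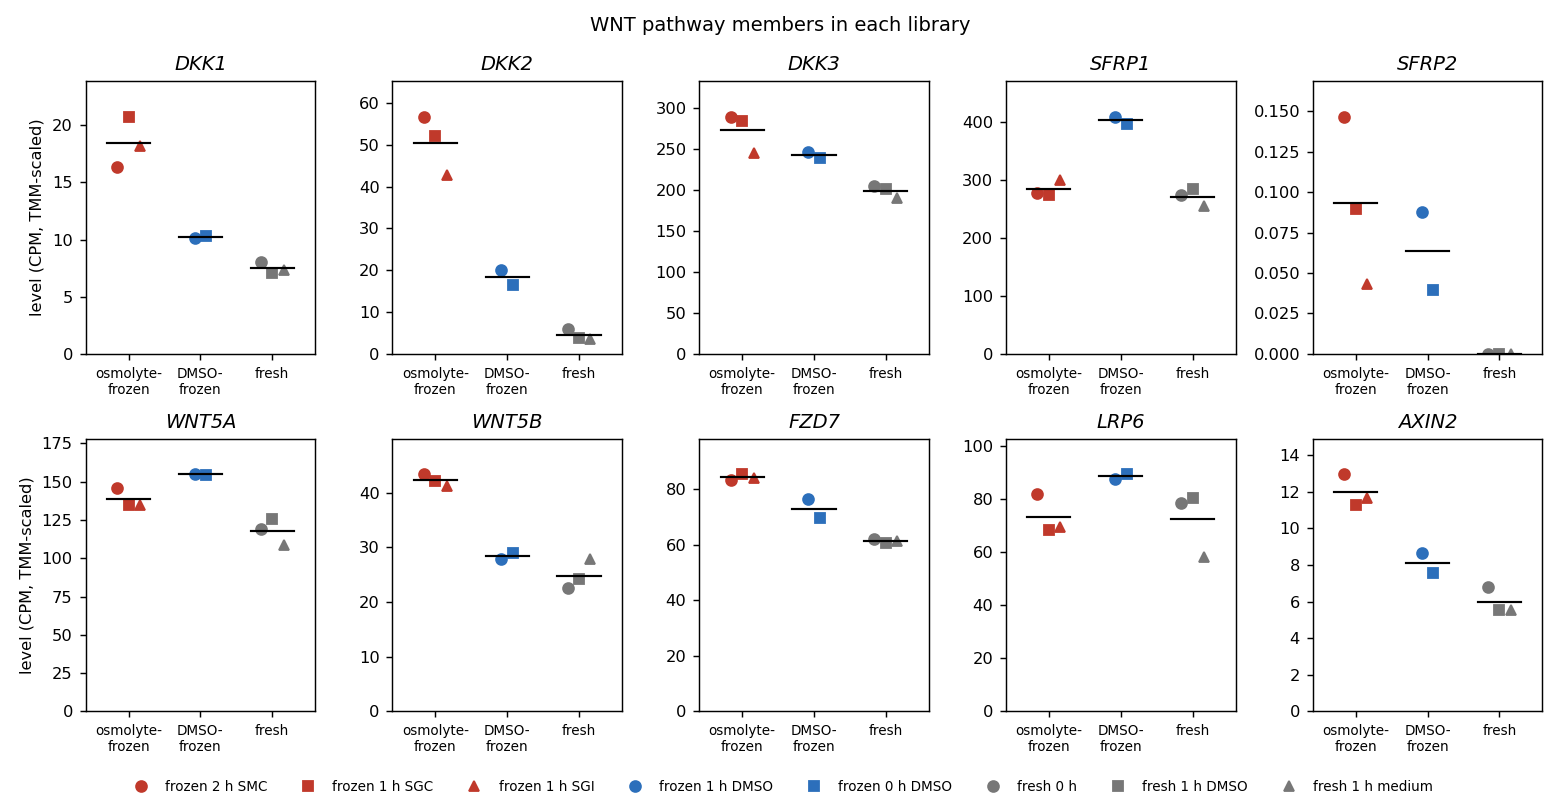
Level of each of the 10 WNT pathway members in CPM (TMM-scaled, linear axes from 0), 1 point per library, with osmolyte-frozen, DMSO-frozen and fresh groups from left to right and a line at each group's mean. DKK2 lies at 42.7 to 56.7 CPM in osmolyte-frozen, 16.5 to 20.2 CPM in DMSO-frozen and 3.54 to 5.91 CPM in fresh libraries, while SFRP1 is highest in the DMSO-frozen libraries.

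The level of DKK2 also varied within the groups. Each of the following pairs sets 1 library against 1 library, so there is no replicate check, and intervals of 95% cover counting error only. DKK2 in SMC was above SGI by 0.41 on the log2 scale (0.29 to 0.53), and SGC was above SGI by 0.29 (0.17 to 0.41). SMC was above SGC by 0.12 (0.0018 to 0.24), or by 0.07 with library totals as the scaling. The library frozen in DMSO after 1 h was above that after 0 h by 0.29 (0.10 to 0.49). In fresh cells the order was turned round, with 1 h in DMSO at a log2 difference of -0.62 from 0 h (-1.04 to -0.22) and 1 h in medium at -0.73 (-1.17 to -0.31). Fresh cells after 1 h in DMSO and after 1 h in medium differed by 0.11, with an interval from -0.36 to 0.58 that includes 0. Set against these, the 5th and 95th percentiles of the same log2 difference over all tested genes were -0.72 and 0.50 for SMC over SGI, -0.65 and 0.58 for SMC over SGC, -0.63 and 0.44 for SGC over SGI, -0.52 and 0.60 for the DMSO-frozen pair, -0.64 and 0.58 for fresh 1 h DMSO over 0 h, -0.70 and 0.57 for fresh 1 h medium over 0 h, and -0.65 and 0.70 for fresh 1 h DMSO over medium. Of these 7 pairs, DKK2 lay outside the range in 1, fresh 1 h medium against 0 h. At matched contact times, DKK2 in DMSO-frozen cells was 5.22 times its fresh level at 1 h in DMSO and 2.77 times its fresh level at 0 h, log2 differences of 2.38 and 1.47. The percentiles over all tested genes were -0.60 and 0.65 for the 1 h pair and -0.67 and 0.56 for the 0 h pair. The fresh 0 h library is not labelled with DMSO, so the 0 h pair differs in more than freezing.

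The other antagonists among the 9 tested members moved less between groups than DKK2. As DKK2 was chosen because it stood out, that ranking is a description. DKK1 (chromosome 10, 54074041 to 54077417) encodes the best-known inhibitor of LRP5 and LRP6. It stood at 16.3, 20.8 and 18.2 CPM in SMC, SGC and SGI. The 1 h and 0 h DMSO-frozen libraries had 10.1 and 10.3 CPM, and fresh cells had 8.06 CPM at 0 h, 7.05 CPM after 1 h in DMSO and 7.38 CPM after 1 h in medium. As for DKK2, the 3 groups did not overlap, but SGC rather than SMC was highest, with SMC at a log2 difference of -0.35 from it (-0.55 to -0.14, counting error only). DKK1 rose 1.81-fold in osmolyte-frozen over DMSO-frozen cells (log2 0.85, SE 0.12, edgeR adjusted p = 5.22e-05). It rose 2.46-fold over fresh cells (log2 1.30, SE 0.11, edgeR adjusted p = 3.51e-08). In DMSO-frozen cells it averaged 10.2 ± 0.145 CPM (SD, n = 2) against 7.498 ± 0.512 CPM in fresh cells (SD, n = 3), a log2 difference of 0.44 that did not pass the threshold in edgeR (adjusted p = 0.0777), though it did in DESeq2 (adjusted p = 0.0485).

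DKK3, a divergent Dickkopf protein that is not a typical LRP6 ligand, was among the most abundant members. It stood at 289, 284 and 245 CPM in SMC, SGC and SGI, at 246 and 239 CPM in the 1 h and 0 h DMSO-frozen libraries, and at 205, 201 and 190.4 CPM in fresh cells at 0 h, after 1 h in DMSO and after 1 h in medium. SGI lay within the range of the DMSO-frozen libraries, while all frozen libraries were above all fresh ones. The rise over fresh cells in osmolyte-frozen cells was 1.37-fold (edgeR adjusted p = 0.000127). The log2 difference of osmolyte-frozen from DMSO-frozen cells was 0.17 (edgeR adjusted p = 0.149), and that of DMSO-frozen from fresh cells was 0.29 (edgeR adjusted p = 0.114, DESeq2 adjusted p = 0.0228).

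SFRP1, a secreted Frizzled-related protein that binds WNT ligands, had another order of groups. It stood at 278, 273 and 301 CPM in SMC, SGC and SGI and at 409.5 and 397 CPM in the 1 h and 0 h DMSO-frozen libraries. Fresh cells had 273 CPM at 0 h, 285 CPM after 1 h in DMSO and 255 CPM after 1 h in medium. Both DMSO-frozen libraries were above every other library, and the osmolyte-frozen and fresh libraries overlapped. SFRP1 was 1.42-fold lower in osmolyte-frozen than in DMSO-frozen cells (log2 -0.51, SE 0.08, edgeR adjusted p = 0.000162) and in DMSO-frozen cells it rose 1.49-fold over fresh cells (log2 0.57, SE 0.08, edgeR adjusted p = 0.000448). Between osmolyte-frozen and fresh cells the log2 difference was 0.07 (SE 0.07, edgeR adjusted p = 0.489). The fresh library held 1 h in DMSO, at 285 CPM, lay below the DMSO-frozen library of the same contact time, at 409.5 CPM.

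SFRP2, a close relative of SFRP1, was near the limit of detection and was not tested. Its deposited counts were 6, 4 and 2 in SMC, SGC and SGI, 4 and 2 in the 1 h and 0 h DMSO-frozen libraries and 0 in the 3 fresh ones. These counts equal at most 0.147 CPM, and 0 counts in the fresh libraries allow levels of up to 0.134 to 0.146 CPM (3 units, entered as 6 counts). All 5 frozen libraries had counts and the 3 fresh ones had 0. SMC lay at that limit and the other 4 frozen libraries below it, and the difference was not tested.

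The ligands WNT5A and WNT5B, close relatives of each other, were ordered differently over the groups. WNT5A stood at 146, 135 and 135 CPM in SMC, SGC and SGI, at 155 CPM in each DMSO-frozen library, and at 119, 125 and 109 CPM in fresh cells at 0 h, after 1 h in DMSO and after 1 h in medium. The DMSO-frozen libraries were highest and every frozen library was above every fresh one. WNT5A rose 1.18-fold in osmolyte-frozen over fresh cells (edgeR adjusted p = 0.0174), and 1.31-fold in DMSO-frozen over fresh cells (edgeR adjusted p = 0.0134). The osmolyte call was lost without fresh 0 h, without fresh 1 h medium and without SMC (edgeR adjusted p = 0.0568, 0.0670 and 0.0847), and the DMSO call without the 1 h or without the 0 h frozen library (edgeR adjusted p = 0.131 and 0.146). The log2 difference of osmolyte-frozen from DMSO-frozen cells was -0.16 (edgeR adjusted p = 0.158). In the RefSeq annotation WNT5A overlaps an antisense gene, WNT5A-AS1. As the strand setting of the counting is not given in the sources used here, reads of this pair cannot be told apart. SFRP1 and LRP6 overlap 3 and 4 other RefSeq genes, and the part of these in the counts was not tested.

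WNT5B (chromosome 12, 1726222 to 1756378) was higher in the osmolyte solutions. It stood at 43.4, 42.1 and 41.2 CPM in SMC, SGC and SGI. The 1 h and 0 h DMSO-frozen libraries had 27.8 and 28.9 CPM, and fresh cells had 22.5 CPM at 0 h, 24.2 CPM after 1 h in DMSO and 27.8 CPM after 1 h in medium. The osmolyte-frozen libraries lay above the rest, while the DMSO-frozen ones were just above the fresh ones. WNT5B rose 1.49-fold over DMSO-frozen cells (log2 0.57, SE 0.09, edgeR adjusted p = 0.000201) and 1.70-fold over fresh cells (log2 0.77, SE 0.08, edgeR adjusted p = 9.96e-07). The log2 difference of DMSO-frozen from fresh cells was 0.19 (edgeR adjusted p = 0.403). Among fresh cells the library after 1 h in medium was above that at 0 h by 0.30 on the log2 scale (0.13 to 0.48, counting error only).

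FZD7, a Frizzled receptor, stood at 83.4, 85.4 and 83.9 CPM in SMC, SGC and SGI, at 76.3 and 69.5 CPM in the 1 h and 0 h DMSO-frozen libraries, and at 61.9, 60.6 and 61.3 CPM in fresh cells at 0 h, after 1 h in DMSO and after 1 h in medium. The groups did not overlap and the spread within osmolyte-frozen and fresh cells was small. FZD7 rose 1.37-fold in osmolyte-frozen over fresh cells (log2 0.46, SE 0.07, edgeR adjusted p = 3.83e-05). Its call in osmolyte-frozen against DMSO-frozen cells was marginal, at 1.16-fold (edgeR adjusted p = 0.0480). That call was lost in 7 of 8 fits that left out a library, all but the one without fresh 1 h medium (edgeR adjusted p = 0.0346). Without SMC the adjusted p was 0.0889, without SGC 0.159, without SGI 0.0914, without the 1 h DMSO-frozen library 0.0626, without the 0 h one 0.384, without fresh 0 h 0.105 and without fresh 1 h DMSO 0.0637, all from edgeR. DMSO-frozen and fresh cells differed by 0.25 on the log2 scale (edgeR adjusted p = 0.126, DESeq2 adjusted p = 0.0428).

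LRP6, the co-receptor at which DKK1 acts, was not called in any of the 3 comparisons. It stood at 81.9, 68.6 and 69.6 CPM in SMC, SGC and SGI, at 87.8 and 89.5 CPM in the 1 h and 0 h DMSO-frozen libraries, and at 78.8, 80.7 and 58.1 CPM in fresh cells at 0 h, after 1 h in DMSO and after 1 h in medium. Fresh 1 h medium was the lowest library, at a log2 difference of -0.44 from fresh 0 h (-0.55 to -0.33, counting error only). The log2 difference of osmolyte-frozen from DMSO-frozen cells was -0.27 (edgeR adjusted p = 0.112). It passed the threshold without fresh 1 h medium (edgeR adjusted p = 0.0135) and without SMC (edgeR adjusted p = 0.0363). Osmolyte-frozen and fresh cells differed by 0.02 on the log2 scale (edgeR adjusted p = 0.921), and DMSO-frozen and fresh cells by 0.29 (edgeR adjusted p = 0.332).

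AXIN2 (chromosome 17, 63524683 to 63557740) encodes a scaffold of the β-catenin destruction complex and is itself a widely used target gene of β-catenin signalling. It stood at 13.0, 11.3 and 11.6 CPM in SMC, SGC and SGI, at 8.66 and 7.58 CPM in the 1 h and 0 h DMSO-frozen libraries, and at 6.81, 5.55 and 5.53 CPM in fresh cells at 0 h, after 1 h in DMSO and after 1 h in medium. The 3 groups did not overlap. AXIN2 rose 2.00-fold in osmolyte-frozen over fresh cells (log2 1.00, SE 0.12, edgeR adjusted p = 3.34e-06) and 1.47-fold over DMSO-frozen cells (log2 0.56, SE 0.13, edgeR adjusted p = 0.00429). Without the 0 h DMSO-frozen library the second of these was not called (edgeR adjusted p = 0.0855). DMSO-frozen and fresh cells differed by 0.44 on the log2 scale (edgeR adjusted p = 0.124).

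**Figure D2:**
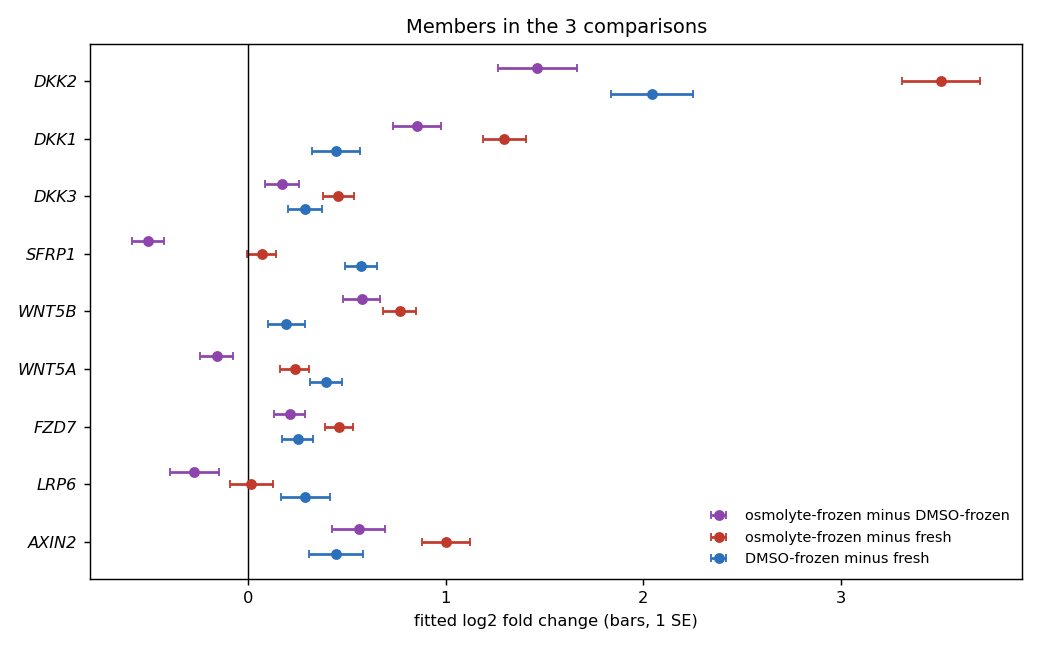
Fitted log2 fold change of the 9 tested members (horizontal axis, bars of 1 SE) in the 3 comparisons, 1 colour each, with a line at 0. DKK2 lies farthest to the right in each comparison, at 3.51 for osmolyte-frozen over fresh cells, and SFRP1 is at -0.51 for osmolyte-frozen over DMSO-frozen cells. DKK2 was chosen because it stood out, so its place is a description.

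Counted over the 8 tested members other than DKK2, 4 were called higher and 1 lower in osmolyte-frozen than in DMSO-frozen cells, where 13.1% of all tested genes were called higher and 16.2% lower. In osmolyte-frozen against fresh cells 6 were called higher and 0 lower, where 18.6% of all tested genes were called higher and 20.7% lower. In DMSO-frozen against fresh cells 2 were called higher, SFRP1 and WNT5A, and 0 lower, where 1.22% of all tested genes were called higher and 0.603% lower. In either direction 29.3%, 39.4% and 1.82% of all genes were called in these comparisons, so calls of members in osmolyte-frozen cells stand against a large background. The counts of 0 lower were also 0 at an unadjusted p under 0.05 and by DESeq2. Without the 0 h DMSO-frozen library 3 of the 8 were called between the frozen groups, and without either DMSO-frozen library 1 in DMSO-frozen against fresh cells. Without regard to the test, all 8 had both DMSO-frozen libraries above all 3 fresh ones and 0 had them below, which 15.9% and 15.4% of all tested genes did. For WNT5B this rested on 27.81 CPM in the 1 h DMSO-frozen library against 27.77 CPM in fresh 1 h medium. Their counting intervals overlapped, at 25.7 to 30.1 and 25.5 to 30.1 CPM, and with library totals as the scaling their order was reversed. In osmolyte-frozen against fresh cells 6 of the 8 lay wholly above and 0 wholly below, as 24.5% and 24.6% of all tested genes did, and SFRP1 and LRP6 overlapped. In osmolyte-frozen against DMSO-frozen cells 4 lay wholly above (28.7% of all tested genes), SFRP1, WNT5A and LRP6 wholly below (27.5%), and DKK3 overlapped. As the members were named with results known, these counts are a description and no sign of a shared response.

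Levels of different genes were compared per length, as the authors' deposited RPKM (reads per kilobase of the gene length given in the table, scaled to a library total). In fresh cells DKK3 at 45.5 ± 2.93 and SFRP1 at 41.5 ± 3.67 RPKM led and overlapped (SD, n = 3). WNT5A at 12.9, FZD7 at 10.9, WNT5B at 7.33, LRP6 at 4.93 and DKK1 at 2.84 RPKM followed without overlap between neighbours. AXIN2 at 0.963 ± 0.121 and DKK2 at 0.832 ± 0.245 RPKM (SD, n = 3) overlapped at the low end, above SFRP2 at 0. In osmolyte-frozen cells DKK2, at 9.20 ± 1.09 RPKM (SD, n = 3), was sixth, above DKK1 at 6.77 ± 0.814 and LRP6 at 4.83 ± 0.437 RPKM. In DMSO-frozen cells it was eighth, at 3.57 ± 0.482 RPKM (SD, n = 2), just below DKK1 at 4.01 ± 0.0878 RPKM, and SFRP1 at 64.1 RPKM led DKK3 at 57.6 RPKM.

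**Figure D3:**
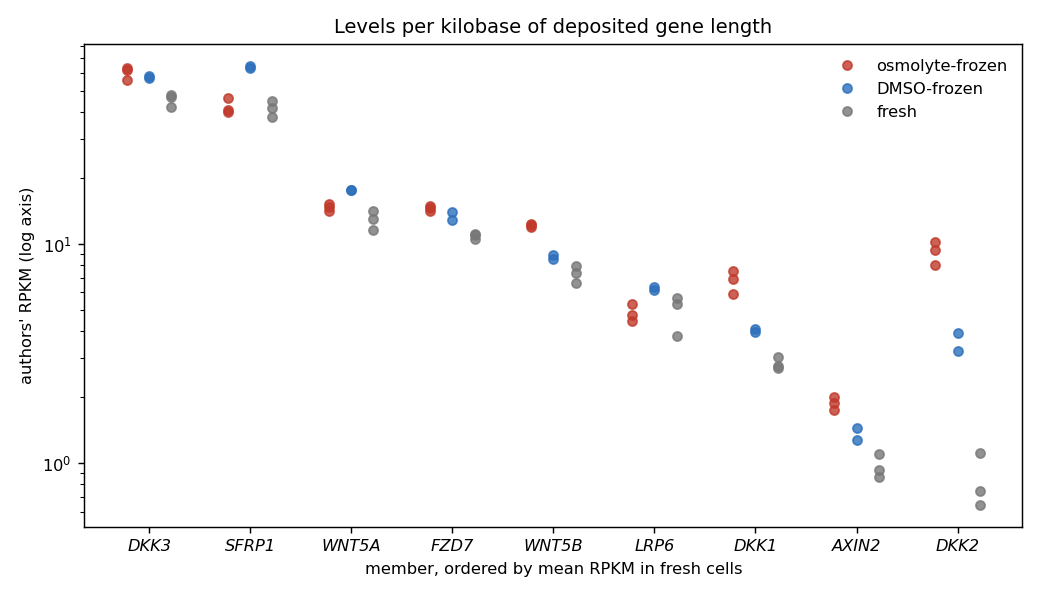
The authors' RPKM of each tested member (SFRP2 is not drawn) on a log axis, 1 point per library, with members ordered by their mean in fresh cells and osmolyte-frozen, DMSO-frozen and fresh libraries side by side in that order. DKK2 is ninth in fresh cells at 0.832 RPKM and sixth in osmolyte-frozen cells at 9.20 RPKM.

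The shares of DKK2 and WNT5B within their families were highest in osmolyte-frozen cells, while the share of FZD7 among Frizzled receptors overlapped between groups. DKK2 made up 57.5% ± 5.06 of the summed RPKM of DKK1 and DKK2 in osmolyte-frozen cells (SD, n = 3), 47.0% ± 3.91 in DMSO-frozen cells (SD, n = 2) and 22.4% ± 3.86 in fresh cells (SD, n = 3). It was 63.3% in SMC, above SGC at 55.5% and SGI at 53.8%. Counted with the abundant DKK3, DKK2 made up 12.0% ± 0.780 of the 3 genes in osmolyte-frozen cells, 5.47% ± 0.636 in DMSO-frozen cells and 1.68% ± 0.430 in fresh cells (SD, n = 3, 2 and 3). These shares contain the DKK2 levels for which it was chosen and are a description.

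Among all 19 WNT ligand genes, WNT5A and WNT5B together held most of the RPKM in each group. WNT5B was 32.4%, 33.4% and 33.0% of the ligands in SMC, SGC and SGI, 22.4% and 23.9% in the 1 h and 0 h DMSO-frozen libraries, and 23.2%, 23.2% and 28.0% in fresh cells at 0 h, after 1 h in DMSO and after 1 h in medium. Its share was highest in the osmolyte-frozen libraries, which did not overlap with the others. WNT5A was 40.0% ± 0.369 in osmolyte-frozen cells (SD, n = 3), 46.8% ± 0.721 in DMSO-frozen cells (SD, n = 2) and 43.5% ± 2.66 in fresh cells (SD, n = 3). The ratio of WNT5A to WNT5B RPKM was thus 1.21 ± 0.0296, 2.02 ± 0.0578 and 1.77 ± 0.283 in the 3 groups. The sum over the ligands was 36.8 ± 1.07 RPKM in osmolyte-frozen, 37.6 ± 0.343 RPKM in DMSO-frozen and 29.6 ± 1.93 RPKM in fresh cells. The sum over the 10 Frizzled receptors was 92.2 ± 2.67, 83.6 ± 5.46 and 64.5 ± 4.18 RPKM in the same groups, and the shares of FZD7 in it overlapped between groups, at 15.8% ± 0.849, 16.1% ± 0.111 and 16.9% ± 0.809.

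**Figure D4:**
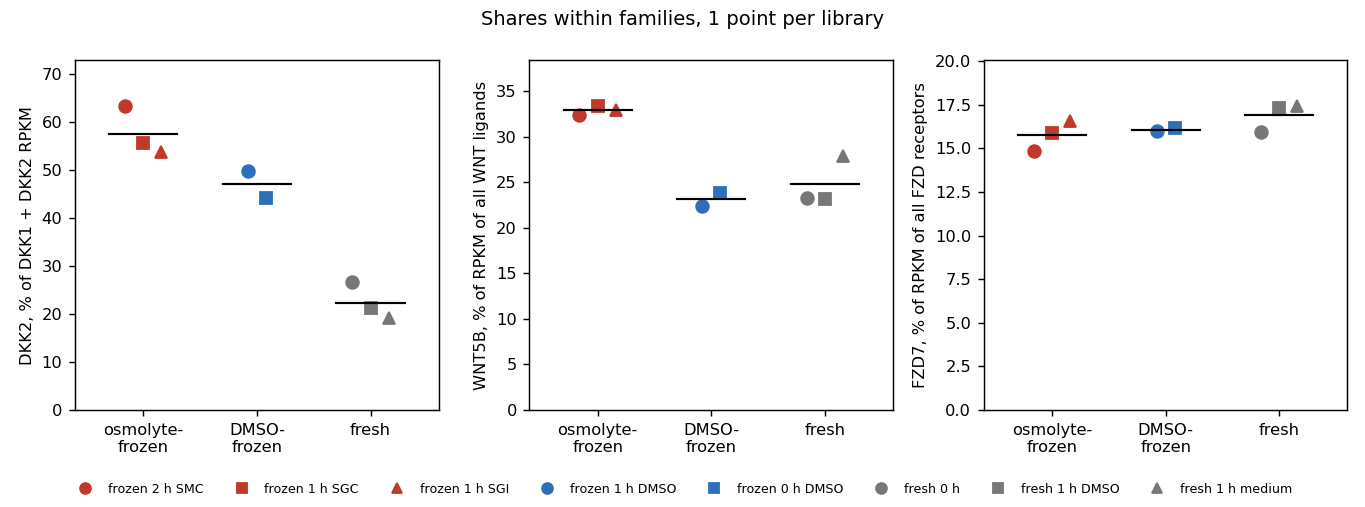
Percent of summed RPKM held by DKK2 within DKK1 and DKK2, by WNT5B within all 19 WNT ligands and by FZD7 within all 10 Frizzled receptors, 1 point per library, with a line at each group's mean and linear axes from 0. WNT5B lies at 32.4% to 33.4% in the osmolyte-frozen libraries and at 22.4% to 28.0% in the others.

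The genes whose profile over the 8 libraries was most like that of DKK2, by Pearson's r of log2 CPM among 10690 genes with a mean of at least 5 CPM, were LRIG1 (r = 0.999), NCKAP5 (r = 0.996), NTN1 (r = 0.994), MPP7 (r = 0.994) and LOXL4 (r = 0.993). The libraries fall into 3 steps, and the value describes only that these genes step in the same way. LRIG1 encodes a membrane protein that restrains growth factor receptors. Its mean level was 184, 115 and 60.8 CPM in osmolyte-frozen, DMSO-frozen and fresh cells. NTN1, which encodes the guidance protein netrin-1, was at 20.7, 5.75 and 1.24 CPM in the same groups. LOXL4, a lysyl oxidase-like enzyme of the extracellular matrix, was at 85.0, 52.3 and 30.0 CPM.

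Of 106 other genes of WNT signalling listed by role, 105 were in the table and 82 were tested. In osmolyte-frozen against DMSO-frozen cells 17 were called higher, 18 lower and 47 were not called, with a median log2 difference of 0.06 against 0.04 over all genes. In osmolyte-frozen against fresh cells 28 were called higher, 16 lower and 38 were not called (median 0.12 against 0.02), and in DMSO-frozen against fresh cells 5 higher, 2 lower and 75 not called (median 0.12 against -0.01). Over all tested genes the shares called higher and lower were 13.1% and 16.2%, 18.6% and 20.7%, and 1.22% and 0.603% in these comparisons. The counts between the frozen groups and in DMSO-frozen against fresh cells rested on the 2 DMSO-frozen libraries. Without the 0 h one, 13 were called between the frozen groups and 4 in DMSO-frozen against fresh cells, and without the 1 h one 23 and 2. Without SGI, 23 were called between the frozen groups.

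**Figure D5:**
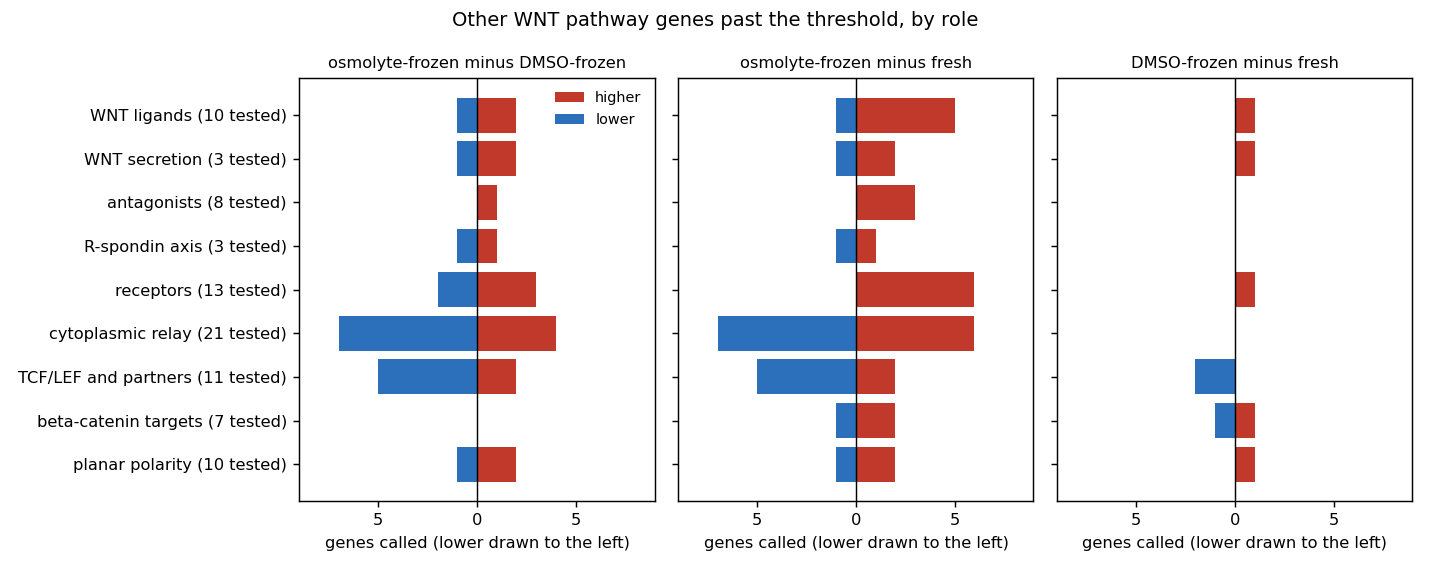
Number of other WNT pathway genes called higher (to the right) or lower (to the left) in each of the 3 comparisons, by role, with the number tested beside each role. In osmolyte-frozen against fresh cells 6 of 13 receptors were higher and 0 lower, and 5 of 11 genes of the TCF and LEF group were lower and 2 higher. Over all tested genes 18.6% were called higher and 20.7% lower in that comparison.

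Of 13 other receptors, 6 were called higher and 0 lower in osmolyte-frozen than in fresh cells, where 18.6% of all tested genes were called higher and 20.7% lower. Against DMSO-frozen cells 3 were higher and 2 lower, where 13.1% of all tested genes were called higher and 16.2% lower. FZD1, a Frizzled receptor, averaged 143 ± 12.2 CPM in osmolyte-frozen cells (SD, n = 3), 71.1 ± 13.7 CPM in DMSO-frozen cells (SD, n = 2) and 44.0 ± 7.24 CPM in fresh cells (SD, n = 3). It rose 2.01-fold in osmolyte-frozen over DMSO-frozen cells (edgeR adjusted p = 0.000344), and 3.25-fold over fresh cells (edgeR adjusted p = 9.77e-07). FZD1 rose 1.62-fold in DMSO-frozen over fresh cells (edgeR adjusted p = 0.0259), a call lost in 5 of 8 fits that left out a library, those without fresh 1 h DMSO (edgeR adjusted p = 0.0538), fresh 1 h medium (0.136), SMC (0.0531), SGC (0.0723) or the 1 h DMSO-frozen library (0.213). FZD3, another Frizzled receptor, rose 1.45-fold over DMSO-frozen cells (edgeR adjusted p = 0.0118) and 1.75-fold over fresh cells (edgeR adjusted p = 0.000115). The call of FZD3 over DMSO-frozen cells was lost without the 1 h or the 0 h DMSO-frozen library (edgeR adjusted p = 0.0519 and 0.111). WLS, the carrier that brings WNT proteins to the cell surface, was at 285 ± 33.5, 201 ± 1.14 and 136 ± 5.35 CPM in osmolyte-frozen, DMSO-frozen and fresh cells. It rose 1.42-fold between the frozen groups, 2.09-fold in osmolyte-frozen over fresh cells and 1.47-fold in DMSO-frozen over fresh cells (edgeR adjusted p = 0.000607, 1.41e-08 and 0.00190). VPS35, which returns WLS from endosomes for reuse, was 1.40-fold lower in osmolyte-frozen than in fresh cells (edgeR adjusted p = 9.29e-05).

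Of 10 other ligands tested, 5 were called higher and 1 lower in osmolyte-frozen than in fresh cells, and 2 higher and 1 lower than in DMSO-frozen cells. Over all tested genes 18.6% were called higher and 20.7% lower than in fresh cells, and 13.1% and 16.2% than in DMSO-frozen cells. Of the 5 ligands called higher than in fresh cells, WNT4, WNT9A and WNT10B were scarce, at 0.758, 1.35 and 0.289 CPM on average in osmolyte-frozen cells. WNT10B could pass the filter on low counts only through the osmolyte-frozen libraries, where it was highest. Its call, counted among the 5, is therefore a description and no support for a difference. WNT2B was the one that fell, 1.53-fold below fresh cells and 1.70-fold below DMSO-frozen cells (edgeR adjusted p = 0.000169 and 0.000101). WNT11, named after its values were seen because it was called in all 3 comparisons, was scarce. It stood at 2.64, 3.53 and 2.86 CPM in SMC, SGC and SGI, at 1.44 and 1.18 CPM in the 1 h and 0 h DMSO-frozen libraries, and at 0.537, 0.273 and 0.388 CPM in fresh cells at 0 h, after 1 h in DMSO and after 1 h in medium. Like DKK2, it had 3 groups without overlap. Its fitted rise was 7.48-fold over fresh cells in osmolyte-frozen and 3.26-fold in DMSO-frozen cells (edgeR adjusted p = 1.53e-07 and 0.00431), and 2.29-fold between the frozen groups (edgeR adjusted p = 0.00269). The DMSO-frozen call was lost without the 1 h DMSO-frozen library (edgeR adjusted p = 0.0782), and that between the frozen groups without the 0 h one (edgeR adjusted p = 0.0559). Of 8 antagonists tested outside the 10 members, 3 were called higher and 0 lower in osmolyte-frozen than in fresh cells, and 1 higher and 0 lower than in DMSO-frozen cells. The shares over all tested genes were as given for the ligands, and 1.22% higher and 0.603% lower in DMSO-frozen against fresh cells. In DMSO-frozen against fresh cells edgeR called 0 of the 8, as did DESeq2, and 2 were higher at an unadjusted p under 0.05. Among them SOST, which encodes sclerostin, an LRP5 and LRP6 inhibitor, is named after its values were seen because it was called in both comparisons of osmolyte-frozen cells. It was scarce, at 0.196, 0.268 and 0.304 CPM in SMC, SGC and SGI, 0.0437 and 0.0395 CPM in the 1 h and 0 h DMSO-frozen libraries and 0 in the fresh ones, so no fold is given. SOST could pass the filter on low counts only through the osmolyte-frozen libraries, where it was highest. Its calls are therefore a description and no support for a difference. By edgeR, SOST was called higher in osmolyte-frozen than in DMSO-frozen cells (adjusted p = 0.0390), but not without that filter (adjusted p = 0.124). The call was also lost without the 1 h or the 0 h DMSO-frozen library. Between the frozen groups DESeq2 called 0 of the 8 antagonists. SOST was called higher in osmolyte-frozen than in fresh cells (edgeR adjusted p = 0.000815). In DMSO-frozen against fresh cells SOST was not called (edgeR adjusted p = 0.376).

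Inside the cell the directions were mixed. Of 21 genes of the cytoplasmic relay, 6 were called higher and 7 lower in osmolyte-frozen than in fresh cells. The shares over all tested genes were 18.6% and 20.7%. Against DMSO-frozen cells 4 were called higher and 7 lower, with shares of 13.1% and 16.2% over all tested genes. In DMSO-frozen against fresh cells 0 of the 21 were called, by edgeR or DESeq2, against 1.82% of all tested genes by edgeR. There 2 were higher at an unadjusted p under 0.05. DACT1 and DACT3, which encode binding partners of Dishevelled that modulate its signalling, rose 1.91-fold and 2.19-fold in osmolyte-frozen over fresh cells (edgeR adjusted p = 1.24e-05 and 3.56e-06). They rose 1.48-fold and 1.57-fold over DMSO-frozen cells (edgeR adjusted p = 0.00436 and 0.00356), and those calls were lost without the 0 h DMSO-frozen library (edgeR adjusted p = 0.0763 and 0.0826). CSNK1A1, the kinase that primes β-catenin for destruction, was 1.40-fold lower than in DMSO-frozen cells and 1.498-fold lower than in fresh cells (edgeR adjusted p = 0.000311 and 7.20e-06). APC, a scaffold of the destruction complex, was 1.40-fold lower than in DMSO-frozen cells (edgeR adjusted p = 0.0158), but not without SGI, the 1 h or the 0 h DMSO-frozen library (edgeR adjusted p = 0.0559, 0.0635 and 0.139). CTNNB1, which encodes β-catenin and was named after its values were seen, averaged 234 ± 15.6 CPM in osmolyte-frozen cells (SD, n = 3), 305 ± 6.84 CPM in DMSO-frozen cells (SD, n = 2) and 315 ± 11.8 CPM in fresh cells (SD, n = 3). It was 1.30-fold lower in osmolyte-frozen than in DMSO-frozen cells and 1.35-fold lower than in fresh cells (edgeR adjusted p = 0.00188 and 0.000139).

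LGR4, a receptor for R-spondins, which amplify WNT signalling, was at 210.2, 162 and 153 CPM in SMC, SGC and SGI, at 343 and 346 CPM in the 1 h and 0 h DMSO-frozen libraries, and at 366, 393 and 314 CPM in fresh cells at 0 h, after 1 h in DMSO and after 1 h in medium. The osmolyte-frozen libraries were all below the others. LGR4 was 1.97-fold lower than in DMSO-frozen cells and 2.04-fold lower than in fresh cells (edgeR adjusted p = 6.28e-05 and 6.76e-06). Of 3 genes of the R-spondin axis tested, 1 was higher and 1 lower in osmolyte-frozen cells against either group. All tested genes were called higher and lower at shares of 18.6% and 20.7% against fresh cells, and 13.1% and 16.2% against DMSO-frozen cells.

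Among 11 nuclear partners tested, 2 were called higher and 5 lower in osmolyte-frozen cells against either group, and 0 higher and 2 lower in DMSO-frozen against fresh cells. The shares of all tested genes called higher and lower were 18.6% and 20.7% in osmolyte-frozen against fresh cells. They were 13.1% and 16.2% between the frozen groups, and 1.22% and 0.603% in DMSO-frozen against fresh cells. TCF7, a TCF factor that is itself a β-catenin target in many cells, stood at 5.18, 5.31 and 5.99 CPM in SMC, SGC and SGI, at 6.82 and 7.07 CPM in the 1 h and 0 h DMSO-frozen libraries, and at 10.9, 11.3 and 11.5 CPM in fresh cells at 0 h, after 1 h in DMSO and after 1 h in medium. Its groups stood in the opposite order to those of AXIN2 and did not overlap. The step between the frozen groups was not called, at a log2 difference of -0.34 (edgeR adjusted p = 0.0546). TCF7 was 2.04-fold lower in osmolyte-frozen than in fresh cells (edgeR adjusted p = 1.14e-06) and 1.62-fold lower in DMSO-frozen than in fresh cells (edgeR adjusted p = 0.00454). The DMSO call was lost without the 1 h or the 0 h DMSO-frozen library (edgeR adjusted p = 0.0875 and 0.0627). TCF7L1, a TCF factor known as a repressor, rose 1.49-fold over DMSO-frozen cells and 1.67-fold over fresh cells (edgeR adjusted p = 0.000115 and 8.15e-07). The co-repressor TLE3 was 1.64-fold lower in osmolyte-frozen than in fresh cells (edgeR adjusted p = 8.66e-06). TLE3 was 1.43-fold lower in DMSO-frozen than in fresh cells (edgeR adjusted p = 0.0120), but not without the 0 h DMSO-frozen library (edgeR adjusted p = 0.296). TLE1, another co-repressor, was 1.51-fold lower in osmolyte-frozen than in DMSO-frozen cells (edgeR adjusted p = 0.000495). PYGO1, a co-activator of β-catenin, was 1.52-fold lower there (edgeR adjusted p = 0.0469), a call lost without SGC, SGI, or the 1 h or 0 h DMSO-frozen library (edgeR adjusted p = 0.148, 0.0798, 0.0956 and 0.259).

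Of 7 other known β-catenin targets tested, 2 were called higher and 1 lower in osmolyte-frozen than in fresh cells, 1 higher and 1 lower in DMSO-frozen than in fresh cells, and 0 in osmolyte-frozen against DMSO-frozen cells by edgeR. That count of 0 was 1 at an unadjusted p under 0.05 and also 0 by DESeq2. Of all tested genes 18.6% were called higher and 20.7% lower in osmolyte-frozen than in fresh cells. In DMSO-frozen against fresh cells these shares were 1.22% and 0.603%, and between the frozen groups 29.3% were called either way. Unlike AXIN2, 4 of these 7 targets were not called in osmolyte-frozen against fresh cells. The lists by role overlap, and TCF7, the target called lower in both comparisons with fresh cells, is also counted among the nuclear partners. NKD1, 1 of the 2 called higher, is also counted in the cytoplasmic relay. It was scarce, at 1.04 CPM in osmolyte-frozen and 0.333 CPM in fresh cells. TNFRSF19, a receptor of the tumour necrosis factor family listed as such a target, rose 1.33-fold in osmolyte-frozen over fresh cells (edgeR adjusted p = 0.00251). It rose 1.37-fold in DMSO-frozen over fresh cells (edgeR adjusted p = 0.0293). That call was lost without fresh 1 h medium (edgeR adjusted p = 0.103), SGI (0.0506), or the 1 h (0.0979) or 0 h (0.370) DMSO-frozen library. Of 10 planar polarity genes, 2 were called higher and 1 lower in osmolyte-frozen cells against either group. The shares over all tested genes were 18.6% and 20.7% against fresh cells, and 13.1% and 16.2% against DMSO-frozen cells. VANGL2, a core planar polarity protein of a branch that WNT5A can feed, rose 1.62-fold in osmolyte-frozen over fresh cells (edgeR adjusted p = 5.10e-07). In DMSO-frozen over fresh cells it rose 1.39-fold (edgeR adjusted p = 0.00247), a call lost without the 1 h DMSO-frozen library.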

How the data were processed

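RNA was measured in 8 libraries of H9-derived mesenchymal stromal cells. Per the labels' protocols, a miRNeasy kit yielded total RNA. CASAVA 1.9, TopHat (version written as 12.0.6), HTSeq and hg19 are named in the submitters' processing notes. The strand setting and annotation release are not given there or in the file headers. The authors deposited 1 raw count and 1 RPKM value per gene and library, per the file headers. All deposited counts are even (0 odd values), so single-library intervals treat each counted unit as entered as 2. Intervals of a level are exact Poisson. Those of a ratio between 2 libraries are exact binomial on the share of the 2 counts, with no prior count. Intervals and floors cover counting error only, as reads that carry no molecular identifiers do not count independent molecules. The authors' RPKM values used the gene length in the table and a library total larger than the sum of counts, since the summed counts are 64.0% to 73.0% of it. Of 23398 entries, 49 symbols were listed more than once. Of these, 41 were identical and kept once and 8 were kept separate.

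Libraries were grouped by title into osmolyte-frozen (3), DMSO-frozen (2) and fresh (3). Counts were fitted with edgeR 4.0.16 in R 4.3.3 (filterByExpr by group, TMM, glmQLFit robust, glmQLFTest), in 1 fit of the 3 groups with 5 residual degrees of freedom and a biological coefficient of variation of 0.0974. Benjamini-Hochberg adjustment ran over all 15924 genes. No libraries were repeats of each other, as chi-square per degree of freedom was 6.47 to 73.1 over 28 pairs. Single-library ratios used log2 CPM with a prior count of 2.

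The members and lists were chosen with earlier results of these data known. Other pathway genes named were, in each comparison, up to 6 called each way with the largest change among those with no overlap of libraries and at least 5 CPM in the higher group, and the 5 most like DKK2. CTNNB1, WNT11 and SOST were named after their values were seen. Alternatives were DESeq2 1.42.0, other scaling (relative log expression, library totals), no filter, halved counts, fits of 2 groups only and leaving out each library. Their use on named pathway genes was added after seeing the data.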

Additional observations from a re-analysis of the deposited data

How the results depend on the processing

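No paired analysis was possible because the labels give no replicate numbers. Between osmolyte-frozen and DMSO-frozen cells 4670 genes were called by edgeR, and 2122 to 5254 when 1 library was left out, with 2122 without the 0 h DMSO-frozen library. A DMSO-frozen library left alone is assumed to vary like the other groups. Of those 4670 genes 44.8% were higher, against 56.4% with library totals as the scaling. Between osmolyte-frozen and fresh cells 6269 genes were called, and 5019 to 6100 with 1 library left out. Between DMSO-frozen and fresh cells 290 genes were called, 473 by DESeq2, 99 without the 1 h and 106 without the 0 h DMSO-frozen library, and up to 310 with another library left out.

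Of the 8 tested members other than DKK2, 5, 6 and 2 were called in the 3 comparisons in that order. With 1 library left out these became 3 to 6, 5 to 6 and 1 to 2, and DESeq2 called 5 in DMSO-frozen against fresh cells. The other pathway genes called became 13 to 39, 35 to 44 and 2 to 9. The fitted log2 difference of DKK2 stayed between 1.32 and 1.61, 3.37 and 3.76, and 1.89 and 2.32 over the fits that left out a library. LRP6 in osmolyte-frozen against fresh cells changed sign, to -0.0050 without the filter, -0.12 without fresh 1 h medium and -0.09 without SMC, in a range of -0.12 to 0.10. In osmolyte-frozen against DMSO-frozen cells, FZD7 was not called with relative log expression scaling, without the filter or with only the 2 groups (edgeR adjusted p = 0.0531, 0.116 and 0.0595). There DKK3 was called with library totals (edgeR adjusted p = 0.0409), and LRP6 with only the 2 groups (edgeR adjusted p = 0.0174). DKK1 in DMSO-frozen against fresh cells was called without the filter (edgeR adjusted p = 0.0406). FZD1 and TNFRSF19 in DMSO-frozen against fresh cells were not called with only the 2 groups (edgeR adjusted p = 0.0772 and 0.0651), nor TNFRSF19 and, between the frozen groups, PYGO1 with library totals (edgeR adjusted p = 0.0539 and 0.0696). The cause of these changes was not tested. With library totals, the log2 ratio of DKK2 was 0.28 in SMC over SGI and 0.07 in SMC over SGC.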
